A study of Mus musculus with 3 samples.

Results

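Glypicans and syndecans are the cell surface heparan sulfate proteoglycans of vertebrates. The genes examined here are the glypicans Gpc1 to Gpc6 and the syndecans Sdc1 to Sdc4, and their members were taken as every non-control probe that carries one of these 10 gene names, out of 27745 names on the array. This gave 17 probes out of 41174, and 14 of the 17 passed the scanner software's test for signal above background on every array and with either dye, as did 55.4% of all probes. Each 60-base probe is present as a single spot. Gpc1, Gpc2, Gpc3 and Sdc1 have 1 probe each, Sdc3 has 3, and the 5 other genes have a pair. Where a gene has several probes, probe 1 is the one with the highest mean signal.

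RNA came from E12.5 kidney rudiments of C57BL/6 mice, either wildtype or Fgfrl1-/-, in which the gene had been inactivated by targeting in the germ line. The mice were littermates, and 3 pools of each genotype were made from 6 to 9 rudiments per pool. Each array received 1 knock-out pool labelled with Cy3 and 1 wildtype pool labelled with Cy5, so that the values of an array are paired. The dyes were swapped on 0 of the 3 arrays, and dye and genotype therefore cannot be told apart. Array 1 lay on a slide of its own, and arrays 2 and 3 shared another slide.

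Both families carry long heparan sulfate chains on a core protein, but they are fixed to the membrane in different ways. Syndecans span the membrane and reach into the cytoplasm with a short tail, whereas glypicans are held by a lipid anchor. The chains bind fibroblast growth factors and many Wnt, Hedgehog and Bmp ligands and act as co-receptors for them, and Fgfrl1 itself binds heparin, a close relative of these chains. In the kidney rudiment, Sdc1 is known from the mesenchyme that condenses around the ureteric bud, and loss of Gpc3 leads to dysplastic kidneys with disturbed branching.

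Fgfrl1 was lower in the knock-out pool of every array, and its log2 fold change averaged -1.52 ± 0.31 (SD, n = 3 arrays, limma adjusted p = 0.0332). A log2 fold change is knock-out over wildtype throughout. Outlier spots numbered 107 to 138 per array, and 57.1% to 80.2% of the probes were well above background in the knock-out channel and 60.9% to 65.0% in the wildtype channel. Taken across probes, which do not count as replicates, Pearson's r was 0.71 between arrays 2 and 3, 0.11 between arrays 1 and 2, and 0.22 between arrays 1 and 3. The spread between arrays is therefore given with each value below, and the arrays of the second slide are also given on their own.

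The probes that carry the main differences are shown here by the first 30 of their 60 bases, so that the targets of the same gene can be told from each other. The longest stretch of bases shared by probes of different members, on either strand, was 11.

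Sdc3 probe 1: gagttcatggccaaaacttaaataagagaa
Sdc3 probe 2: atctgccccagactgtgtccttatgacccc
Sdc3 probe 3: aagcgtcacataccagaagcccgacaagca
Gpc2 probe 1: ccaattaatggggtgggaggtagatgggtt
Gpc4 probe 1: tgttctgcgtggctagcagtgtaggtacag
Gpc4 probe 2: ttcctttttagcttagactgctattacttt
Sdc1 probe 1: atctgtatggtgccccatttttggcggccc
Sdc4 probe 1: tggaagtcattcctcggttgcactagccac
Sdc4 probe 2: ttgttccaaatttccagaatagaatatagg

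Of the 17 probes, 1 was called higher in the Fgfrl1 deficient kidneys at an adjusted p below 0.05 and 0 were called lower. The called probe belongs to Sdc3. Over the whole array 0.289% of the probes were called higher and 0.398% lower, or 0.687% in either direction. At an unadjusted p below 0.05, limma passed 6 of the 17 probes, 4 of them higher (Gpc2, both probes of Gpc4, and Sdc3 probe 1) and 2 lower (Sdc1 and Sdc4 probe 1), beside 15.9% of all probes, 7.69% higher and 8.2% lower. The ratio was above 0 on all 3 arrays for 7 probes of the genes Gpc2, Gpc4, Sdc2 and Sdc3, against 19.1% of all probes, and below 0 on all 3 arrays for Sdc1 only, against 19.3%. Probes of the same gene are not independent of each other, and these 7 probes stand for 4 genes. The median log2 fold change was 0.086 over the member probes and 0.0037 over all probes. Under median centring of the arrays in place of the loess correction, the member median was -0.053 and that of all probes 0.042.

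**Figure D1:**
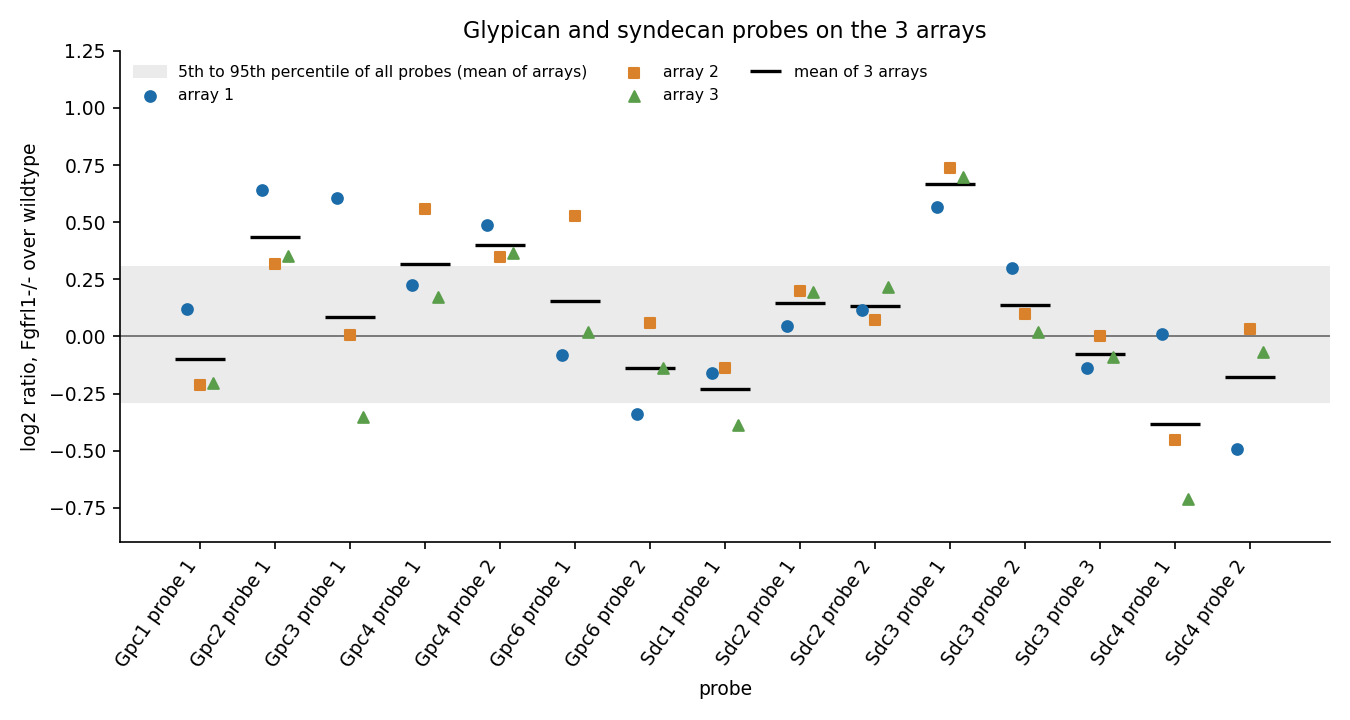
Log2 ratio of Fgfrl1-/- over wildtype (vertical axis) for 15 of the 17 probes (horizontal axis; the Gpc5 probes, at background, are left out), with a symbol for each of the 3 arrays, a black line for their mean, and a grey band from the 5th to the 95th percentile of the mean ratio over all probes (-0.29 to 0.30). Sdc3 probe 1 (0.56 to 0.74), Gpc2 (0.32 to 0.64) and Gpc4 probe 2 (0.35 to 0.49) have all 3 arrays above the band. Gpc3 spreads from -0.35 to 0.60.

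Among the syndecan probes, probe 1 of Sdc3 had the largest difference. Sdc3 is a syndecan best known from the developing nervous system and limb. Its probe 1 (chromosome 4 of mm8, 130098176 to 130098235, plus strand) had normalized log2 levels of 10.08, 10.02 and 10.11 in the knock-out pools of arrays 1, 2 and 3, and of 9.52, 9.28 and 9.41 in the wildtype pools. All 3 knock-out levels were above all 3 wildtype levels, a separation in this direction that 6.76% of all probes showed. The log2 ratios were 0.56, 0.74 and 0.70, with a mean of 0.67 ± 0.091 (SD, n = 3 arrays, limma adjusted p = 0.0419), which is a 1.59-fold increase. This was the only member probe that was at least 1.5-fold apart, as 1.29% of all probes were. The call was lost when array 2 was left out (0.63, adjusted p = 0.355) or array 3 (0.65, adjusted p = 0.476), while without array 1 it was kept (0.72, adjusted p = 4.75e-05). It was kept in 5 of 16 alternatives in all, and the fold change was positive in each of them.

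The other probes of Sdc3 did not show this increase, but probe 3 was dim. Probe 2 lies 3115 bases upstream of probe 1 on the same strand, from 130095061 to 130095120. Its log2 ratios were 0.30, 0.096 and 0.020, with a mean of 0.14 ± 0.145 (SD, n = 3 arrays, limma adjusted p = 0.513), and its channel levels overlapped. Probe 1 exceeded probe 2 on every array, by 0.26, 0.64 and 0.68 in log2 ratio. Probe 3, designed from another Sdc3 cDNA and given no position in the files, exceeded the background clearly on 2 of 3 arrays in each channel and had a mean of -0.075 ± 0.071 (SD, n = 3 arrays, limma adjusted p = 0.702). The mean log2 levels of probe 3 were 6.27 in the knock-out and 6.34 in the wildtype pools, near those of the Gpc5 probes at background. At such levels the offset of 50 draws ratios towards 0. With the 3 probes averaged, the dim probe 3 included, Sdc3 had a log2 fold change of 0.24 (limma adjusted p = 0.153) and was not called. The files give no exon structure, and whether the probes detect the same transcripts was not tested.

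**Figure D2:**
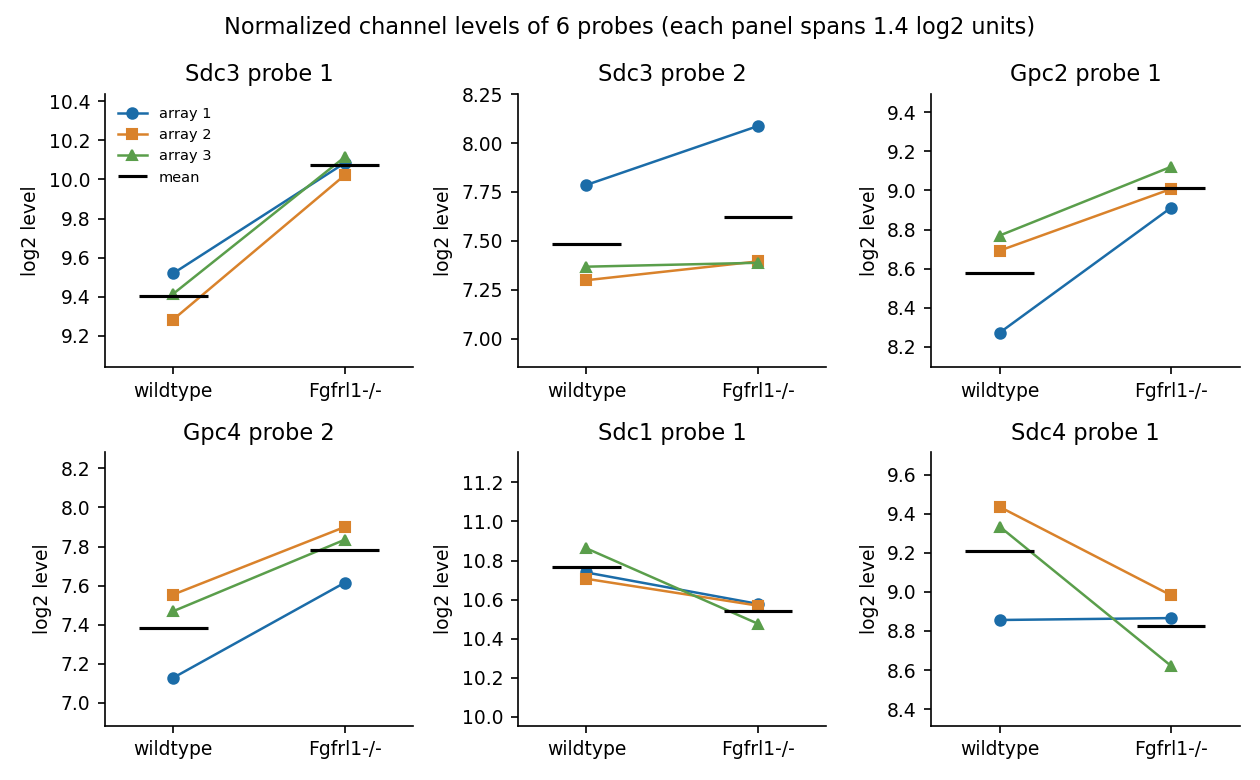
Normalized log2 level (vertical axis, spanning 1.4 log2 units in each panel) in the wildtype and Fgfrl1-/- pools for 6 probes, with a line joining the pools of 1 array and black bars for the means. The pools separate for Sdc3 probe 1, Gpc2, Gpc4 probe 2 and Sdc1, and overlap for Sdc3 probe 2 and Sdc4 probe 1, where array 1 shows almost no difference.

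Sdc1 and Sdc4 lay on the opposite side. Sdc1, the syndecan of epithelia and of condensing kidney mesenchyme, was measured with a probe on chromosome 12 from 8818585 to 8818644 (plus strand). Its log2 levels were 10.58, 10.57 and 10.48 in the knock-out pools and 10.74, 10.71 and 10.86 in the wildtype pools. The knock-out pools were all below the wildtype pools, as they were for 7.18% of all probes, and the ratio was -0.23 ± 0.14 on the log2 scale (SD, n = 3 arrays, limma adjusted p = 0.269). It was -0.51 under median centring and -0.15 without array 3. The 95% confidence interval of limma ran from -0.43 to -0.022.

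Sdc4, a syndecan found at focal adhesions, was read by a pair of probes on the minus strand of chromosome 2. Probe 1 (164115821 to 164115880) had log2 levels of 8.87, 8.98 and 8.62 in the knock-out pools and 8.86, 9.43 and 9.33 in the wildtype pools. The pools of array 1 were nearly equal, and the knock-out was lower on arrays 2 and 3. The mean log2 fold change was -0.39 ± 0.37 (SD, n = 3 arrays, limma adjusted p = 0.286), and it was -0.22 without array 3. Probe 2 (164116916 to 164116975), 1095 bases away, went the other way round, with log2 ratios of -0.49, 0.033 and -0.066, which average -0.18 ± 0.28 (SD, n = 3 arrays, limma adjusted p = 0.562). Across the alternatives probe 2 ranged from -0.33 to -0.017. The probes of Sdc4 thus differed in which slide gave the lower value. With both probes averaged, Sdc4 had a log2 fold change of -0.28 (limma adjusted p = 0.149) and was not called. The average of the Sdc3 probes was 0.24.

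For Sdc2, a syndecan mainly of mesenchymal cells, the probes on chromosome 15 gave close values. Probe 1 (32979038 to 32979097) had log2 ratios of 0.048, 0.20 and 0.19, and probe 2 (32977128 to 32977187) had 0.11, 0.074 and 0.22. The means were 0.15 ± 0.086 and 0.13 ± 0.073 (SD, n = 3 arrays, limma adjusted p = 0.422 and 0.452). Every one of the 6 ratios was above 0, but the channel levels overlapped, and the interval of probe 1 ran from -0.037 to 0.33. Both signs turned under median centring, to -0.12 and -0.053.

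Among the 6 glypicans, 0 of 9 probes were called by limma, beside 0.687% of all probes. At an unadjusted p below 0.05 there were 3, all higher in the knock-out, beside 7.69% of all probes in this direction. These were the probe of Gpc2 and both probes of Gpc4. Gpc2, also called cerebroglycan, is a glypican known from immature neurons. Its probe on the minus strand of chromosome 5 (138503888 to 138503947) had log2 levels of 8.91, 9.01 and 9.12 in the knock-out pools and 8.27, 8.69 and 8.77 in the wildtype pools. The groups did not overlap, as for 6.76% of all probes in this direction, and array 1 had the largest distance. The log2 ratios were 0.64, 0.32 and 0.35, with a mean of 0.44 ± 0.18 (SD, n = 3 arrays, limma adjusted p = 0.106), a 1.35-fold difference, and the value was 0.28 under median centring.

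Gpc4, first described as K-glypican in the kidney, had a pair of probes 2059 bases apart on the minus strand of the X chromosome. Probe 2 (48295779 to 48295838), designed from a RIKEN cDNA, had log2 levels of 7.61, 7.90 and 7.83 in the knock-out pools and 7.13, 7.55 and 7.47 in the wildtype pools. The lowest knock-out level, on array 1, was just above the highest wildtype level, on array 2. Such a separation was seen for 6.76% of all probes. The mean log2 fold change was 0.40 ± 0.076 (SD, n = 3 arrays, limma adjusted p = 0.0881). Probe 1 (48297838 to 48297897) had log2 ratios of 0.22, 0.56 and 0.17, which average 0.32 ± 0.21 (SD, n = 3 arrays, limma adjusted p = 0.211), and the value was 0.12 under median centring and 0.20 without array 2. Both probes were thus higher on all 3 arrays, with the interval of probe 1 from 0.070 to 0.57 and that of probe 2 from 0.22 to 0.58, but neither passed the adjusted threshold.

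Gpc3 is the direct neighbour of Gpc4 on the X chromosome in RefSeq, with 0 coding genes between them. Its probe (48517190 to 48517249, minus strand) had log2 levels of 13.91, 14.21 and 14.00 in the knock-out pools and 13.31, 14.21 and 14.35 in the wildtype pools. The arrays went 3 ways: the knock-out was higher on array 1, equal on array 2 and lower on array 3. With log2 ratios of 0.60, 0.0048 and -0.35, the mean of 0.086 was far smaller than its SD of 0.48 (n = 3 arrays, limma adjusted p = 0.887). This was the largest SD of the 17 probes, and the mean turned to -0.17 without array 1 and to -0.38 under median centring. The 95% confidence interval ran from -0.37 to 0.54.

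Gpc1, a widely expressed glypican, was measured on chromosome 1 from 94690540 to 94690599 (plus strand). Its log2 ratios were 0.12 on array 1 and -0.21 and -0.20 on arrays 2 and 3, with a mean of -0.098 ± 0.19 (SD, n = 3 arrays, limma adjusted p = 0.706). The value on array 1 was again apart from the other two, and the fold change was -0.52 under median centring.

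Gpc5 and Gpc6 are neighbours on chromosome 14, also with 0 coding genes between them. Neither probe of Gpc5 was well above background in any channel of any array, so that their ratios compare background levels and are not read as fold changes of this gene. They remain in the counts and the median over all 17 probes. In the raw signals, probe 1 of Gpc5 read 26, 38 and 41.5 over local backgrounds of 18.5, 28 and 26 in the knock-out channel. Gpc6 was well above background throughout. Its probe 1 (116858711 to 116858770) had log2 ratios of -0.081, 0.53 and 0.018 with a mean of 0.15 ± 0.33 (SD, n = 3 arrays, limma adjusted p = 0.663), and probe 2 (116847602 to 116847661) had -0.34, 0.058 and -0.14 with a mean of -0.14 ± 0.20 (adjusted p = 0.572). Probe 1 was above probe 2 on every array, by 0.26, 0.47 and 0.16 in log2 ratio. The SD of each probe was larger than its mean, and across the alternatives probe 1 ranged from -0.080 to 0.27 and probe 2 from -0.26 to -0.040.

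Array 1 and the mean of arrays 2 and 3 had opposite signs for 6 of the 17 probes (Gpc1, Gpc3, both probes of Gpc5, Gpc6 probe 1 and Sdc4 probe 1), beside 46.5% of all probes. Among the 14 probes above background on every array and with either dye the number was 4, beside 43% of such probes on the array. Within the second slide, that is without array 1, limma called 6 of the 17 probes. Gpc2 (0.33, adjusted p = 0.00706), Gpc4 probe 1 (0.37, adjusted p = 0.0141), Gpc4 probe 2 (0.36, adjusted p = 0.00487) and Sdc3 probe 1 (0.72) were higher. Sdc1 (-0.26, adjusted p = 0.0401) and Sdc4 probe 1 (-0.58, adjusted p = 0.000447) were lower. These calls must be read against the 18.6% of all probes that were called from the same pair of arrays, 8.49% higher and 10.1% lower. With array 2 or array 3 left out, limma called 0 of the 17 probes and 0 of all probes, with 3712 and 3141 probes at an unadjusted p below 0.05.

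**Figure D3:**
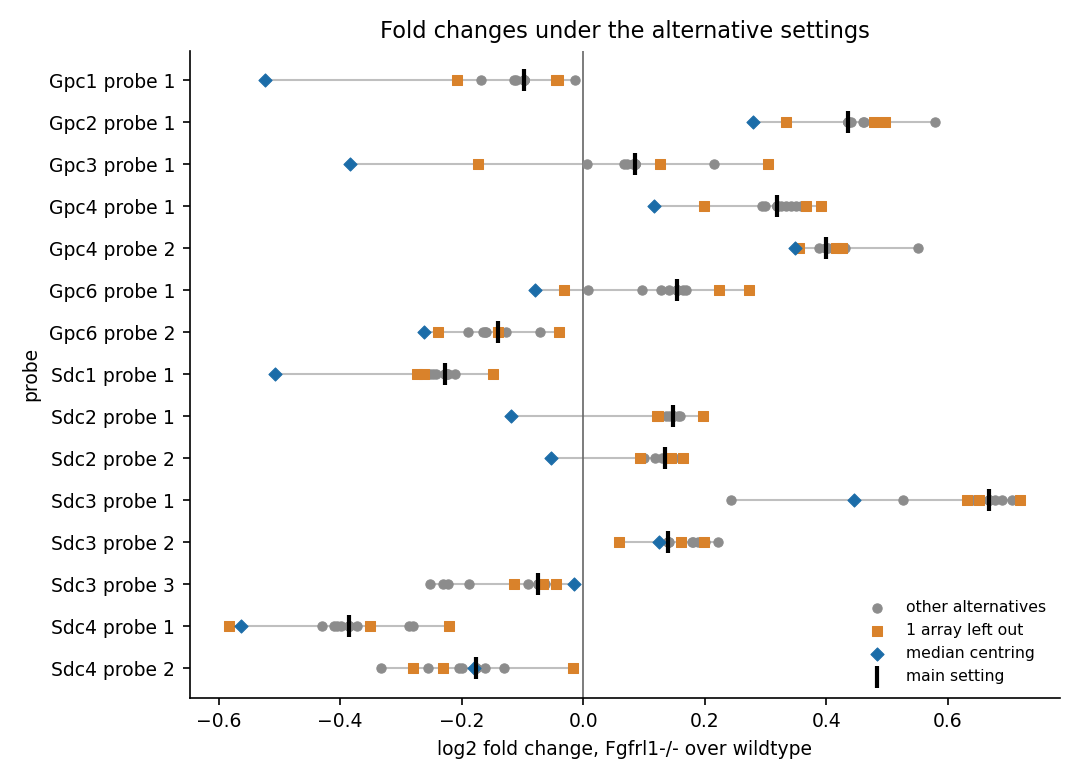
Log2 fold change of Fgfrl1-/- over wildtype (horizontal axis) for the same 15 probes (vertical axis; Gpc5 left out) in the main setting (black tick), with 1 array left out (orange), under median centring (blue) and under the other alternatives (grey); an alternative that gives 1 value per gene stands at probe 1. Gpc2, Gpc4 and Sdc3 probes 1 and 2 stay above 0. Gpc1, Gpc6 probe 2, Sdc1, Sdc3 probe 3 and Sdc4 stay below 0, while Gpc3, Gpc6 probe 1 and Sdc2 cross 0.

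The genes that build, modify and release the proteoglycans were examined beside the core proteins, each gene by its brightest probe. Apart from Notum, the genes named from these lists were chosen after their values were seen. Of 11 genes for chain synthesis, from the xylosyltransferases that start the linker to the polymerases Ext1 and Ext2, limma called 0, and the median log2 fold change was -0.064, within a range from -0.18 to 0.25. Ext1 had -0.15 (adjusted p = 0.583) and Ext2 0.025 (adjusted p = 0.946). Of 19 genes for chain modification, 17 were matched on the array and 0 were called, with a median of 0.028. Only 12 of the 17 were well above background on 3 arrays in at least 1 channel. The median is the ratio of Hs3st5, which was well above background on 0 arrays, so that it is not read as a fold change. The lowest of them was Hs3st3b1, a 3-O-sulfotransferase, with log2 ratios of -0.38, -1.002 and -1.13, which average -0.84 ± 0.40 (SD, n = 3 arrays, limma adjusted p = 0.0896). Sulf1, an enzyme that removes 6-O-sulfate groups outside the cell, had 0.62 on array 1 but -0.48 and -0.35 on arrays 2 and 3.

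Of 9 genes for shedding and anchor cleavage, 1 was called, and it was lower. This was Notum, a secreted enzyme first described as releasing glypicans from their anchor and now known to inactivate Wnt proteins. The array names its probe 5730593N15Rik. The paper lists Notum, as it does Hs3st3b1, among the genes with reduced expression at its own cutoffs. The log2 ratios of Notum were -1.002, -0.88 and -0.87, with a mean of -0.92 ± 0.074 (SD, n = 3 arrays, limma adjusted p = 0.0322). The wildtype channel was well above background on 3 arrays and the knock-out channel on 1. The call was lost without array 2 or array 3, with an offset of 0, with the scanner software's ratios and with 1 value per slide. In each of these settings limma called 0 of all probes. The sheddase genes Adam10 and Adam17 had -0.33 (adjusted p = 0.105) and 0.20 (adjusted p = 0.456). Among 7 cytoplasmic partners of syndecans, 0 were called, and Sdcbp, or syntenin, had 0.33 (adjusted p = 0.26). Of the 6 other heparan sulfate proteoglycans, 5 were matched and 0 called, with a median of 0.24 and a range from 0.039 for Col18a1 to 0.36 for Nrp1. The median is the value of Agrn, which had 0.63 on array 1 but 0.073 and 0.018 on arrays 2 and 3. Tgfbr3 was well above background on 1 array in the knock-out channel and on 0 in the wildtype channel.

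**Figure D4:**
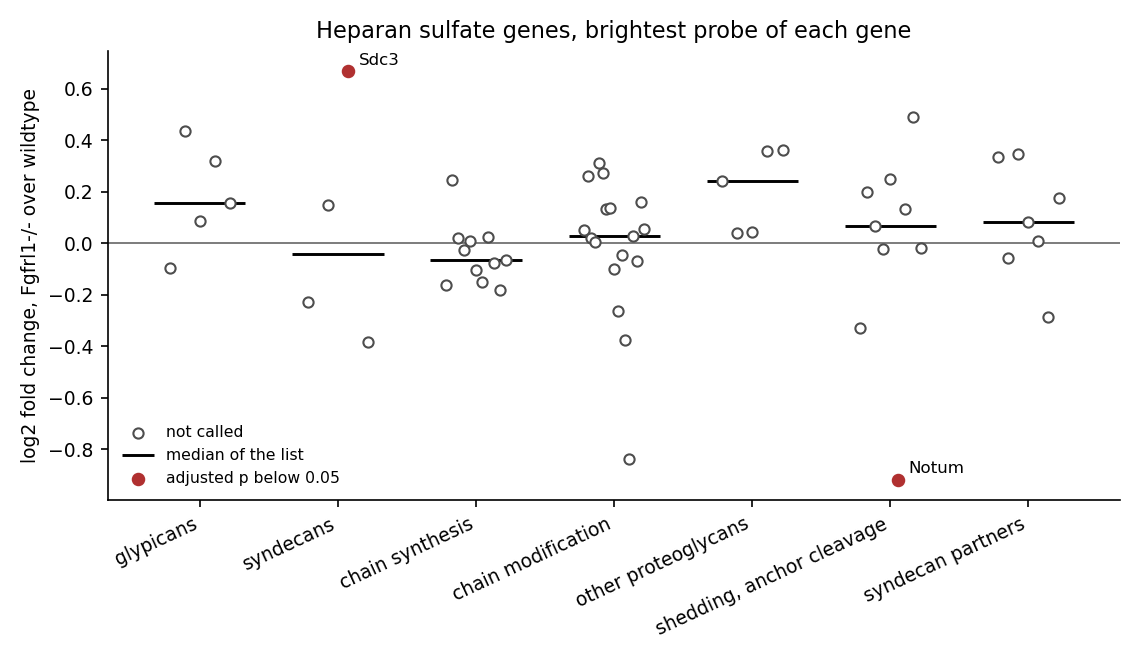
Log2 fold change of Fgfrl1-/- over wildtype (vertical axis) of the brightest probe of each gene, for the glypicans (without Gpc5), the syndecans and 5 lists of related genes (horizontal axis); filled points had an adjusted p below 0.05 and black lines are medians. Only Sdc3, at 0.67, and Notum, at -0.92, are filled. The 5 lists keep genes whose probes were at background.

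Marker genes of several kidney cell types differed on the same arrays, and in bulk tissue fewer cells of a type and less RNA per cell cannot be told apart. All 9 genes of the cap mesenchyme list were well above background on 3 arrays in at least 1 channel, as were 24904 of all 41174 probes. The same held for 7 of 7 endothelial, 5 of 6 neural and 4 of 6 skeletal muscle markers. Such detection therefore does not by itself show which tissue was taken. Of the 9 renal vesicle markers 6 were called lower, led by Wnt4 (-2.40) and Dkk1 (-2.25), with a list median of -1.28, and their summed log2 level ran from 12.45 to 12.85 in the knock-out pools and from 13.52 to 13.80 in the wildtype pools. Of the 9 cap mesenchyme markers 3 were called lower, led by Gdnf (-0.83) and Cited1 (-0.78), with a list median of -0.42. The other cap mesenchyme markers were not called. Means were near 0 for Six2 (-0.046, limma adjusted p = 0.897), Sall1 (-0.11, adjusted p = 0.779) and Osr1 (0.054, adjusted p = 0.881). The ratios of Sall1 ran from -0.47 to 0.22. Eya1 (-0.42, limma adjusted p = 0.194), Crym (-0.42, adjusted p = 0.0937) and Meox1 (-0.30, adjusted p = 0.12) were lower on every array. Of the 7 markers of the ureteric tip 2 were called lower, Etv4 (-1.05) and Wnt11 (-0.77), with a list median of -0.22. In the same list Wnt9b had 0.73 (adjusted p = 0.0661) and Sox9 0.30 (adjusted p = 0.317), and the probe of Ret was not well above background. Etv5 had -0.42 (limma adjusted p = 0.143), with every array below 0, and Gfra1 had -0.22 (adjusted p = 0.498). Of the 9 stromal markers 2 were called higher, Pdgfra (1.02) and Col1a1 (0.84), with a list median of 0.41. The summed level of this list, Col1a1 included, was 17.06 to 17.31 against 16.58 to 16.59, while Tcf21 had -0.48 (adjusted p = 0.127). In the paper's qPCR at E12.5, Wnt4, Dkk1 and Gdnf were lower in the knock-out. Col1a1 was not higher there, nor were the other up-regulated array transcripts the paper tested. Sdc3 and Pdgfra were not among the genes listed for that qPCR. Of the 6 macrophage markers 1 was called higher, C1qa at 0.65 (list median 0.49), with a summed level of 10.93 to 11.44 against 10.51 to 10.74. Limma called 0 of the 9 ureteric stalk markers (median 0.37), 0 of the 7 endothelial (-0.053), 0 of the 6 erythroid (-0.076), 0 of the 6 neural (-0.083), 0 of the 6 skeletal muscle (0.019) and 0 of the 5 steroidogenic markers (-0.13, and 0.022 under median centring). The part of these shifts in the values of Sdc3, Gpc2, Gpc4, Sdc1 and Sdc4 was not tested.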

How the data were processed

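The authors deposited the Agilent Feature Extraction output of each array (version 9.5.3.1 for array 1, 10.5.1.1 for arrays 2 and 3), with raw median intensity per spot and local background, and log10 ratios of wildtype over knock-out after the software's own dye normalization. They also deposited a table of log2 ratios made in R, whose steps are not given in the sources used here. It runs as knock-out over wildtype, opposite in sign to the scanner ratios. Positions are those on mm8. Gene names are those of the array design. For the gene lists, older names were matched through RefSeq synonyms of GRCm38.p6.

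From the raw intensities, the background was corrected by normexp with an offset of 50, which draws the ratios of dim spots towards 0, and each array was normalized by loess with control spots at weight 0. Outlier spots were removed, and 0 spots were saturated. Spots of a probe were averaged. Channel levels were scaled between arrays by Aquantile, which leaves the ratios as they are. Limma 3.58.1 in R 4.3.3 tested the log2 ratio of all 41174 probes against 0 (lmFit and eBayes, 2-sided, Benjamini-Hochberg, threshold 0.05). The steps were tested on simulated data. The members, lists and tests were chosen with earlier results of these data known. Text names cover every member probe, Fgfrl1, called genes of the lists (at most 6 per pathway list and 2 per marker list, by the largest fold change) and further list genes that were chosen after their values were seen. The 3 arrays limit the precision, and p-values measure the spread between these pools only.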

Additional observations from a re-analysis of the deposited data

How the results depend on the processing

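Most alternatives altered a single choice, but the ratios of the scanner software replace both the background correction and the dye normalization, and the steps behind the authors' table are not given. Of 255 values of member probes under the alternatives, 229 kept their sign and their side of the threshold, 1 was exactly 0 (Gpc5 probe 2 with the scanner ratios), 11 lost the call of Sdc3 probe 1, 5 gained a call (all without array 1), and 9 changed sign. Those were Gpc3 (-0.38), Gpc6 probe 1 (-0.080), Sdc2 probe 1 (-0.12) and Sdc2 probe 2 (-0.053) under median centring, Gpc3 without array 1 (range with 1 array left out, -0.17 to 0.30), Gpc6 probe 1 without array 2 (-0.032 to 0.27), Gpc5 probes 1 and 2 without array 3 (-0.018 to 0.11 and -0.059 to 0.11), and Gpc5 probe 1 (-0.00025) with 1 value per slide. The Gpc5 ratios compare background levels.

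Sdc3 probe 1, the member called higher, lost its call (0 members higher) with the background left in (0.69), a normexp offset of 0 (0.71), quantile normalization (0.65), dim probes left out (0.67), the authors' table (0.68) and 1 value per slide (0.64), and also under median centring (0.45), with the scanner ratios (0.53) and with probes averaged per gene name (0.24). Its adjusted p ran from 4.75e-05 to 0.476. With arrays left out in turn, 0 to 4 members were higher and 0 to 2 lower, and over all probes 0 to 3494 were higher and 0 to 4172 lower, against 119 and 164. The counts over all probes, lower and higher, were 0 and 0 with an offset of 0 (4852 at an unadjusted p below 0.05), 0 and 0 with the scanner ratios (6118), 0 and 0 with 1 value per slide (3449), 91 and 2 under median centring, 60 and 22 under quantile normalization, 34 and 7 without dim probes, and 32 and 4 in the authors' table. There were 72 higher with no background subtraction and 226 in the separate-channel fit. Fgfrl1 stayed lower but missed the threshold with an offset of 0 (-1.68), the scanner ratios (-1.83), 1 value per slide (-1.44), and without array 2 or array 3 (-1.52 and -1.36, beside -1.67 without array 1). In each setting where Fgfrl1 missed the threshold, limma called 0 of all probes. The cause was not tested. The slide as a random block could not be fitted. The ratio within an array is itself a paired comparison of its pools.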
